A study of Cubamyces sp. BRFM 1775 with 14 samples.

Results

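Leiotrametes sp. BRFM1775 is a white-rot basidiomycete, listed by GEO under the genus Cubamyces. Its mycelium was grown with wheat straw or with maltose, and the messenger RNA of these cultures is compared here. Of the 14 samples of the series, 5 carry these labels, 2 for wheat straw and 3 for maltose. The comparison is the wheat straw column minus the maltose column of the deposited table, over all genes of the table. All cultures were the same strain, grown for 3 days at 30 °C with shaking at 120 rpm in 100 ml of the same mineral medium with yeast extract. Maltose cultures held 20 g/l maltose and no solid substrate. Wheat straw cultures held 15 g/l ground straw and 2.5 g/l maltose, so the added straw and the lower maltose concentration cannot be told apart. The other groups of the series held cellulose (Avicel) or pine at 15 g/l with 2.5 g/l maltose, or aspen at 15 g/l with maltose at a concentration the labels misprint. The harvested mycelium still held leftover solid substrate when it was frozen. The labels do not say whether replicates are separate flasks, and p-values then reflect only the spread among these libraries, which may be technical.

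Wheat straw is the stem tissue of a grass. Its cell walls hold cellulose, hemicelluloses rich in xylan, and lignin, and a fungus can use them only after secreted enzymes have broken these polymers into small molecules. Maltose is a soluble sugar made of glucose, which fungi take up or cleave without such enzymes. In many filamentous fungi readily used sugars repress the genes for polymer breakdown, and small sugars released from the plant wall induce them. The deposited table identifies each gene only by its MycoCosm protein number and pairs no number with a gene name or function. The genes below are therefore described by number, and no enzyme family is assigned. For each question at most 2 numbers are given per direction.

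The table gives 1 log2 normalised read count per substrate. As set out under the processing, the means could be resolved into whole reads per library, for 895 genes in all 5 libraries. Library 1 of a substrate is the one with the lowest size factor, and this numbering is unrelated to the replicates in the labels. Over these 895 genes the median was 98, 192 and 308 reads in maltose libraries 1 to 3, and 433 and 455 reads in wheat straw libraries 1 and 2. Maltose library 1, the shallowest, stood apart from the other maltose libraries. Over genes, its Pearson correlation was 0.943 with library 2 (857 genes) and 0.955 with library 3 (879 genes). Between libraries 2 and 3 it was 0.985 (883 genes). The 2 wheat straw libraries had a correlation of 0.989 over 1043 genes. The maltose sets lack genes with a deposited maltose value above 12, so the correlations of the substrates are not compared. These correlations describe libraries over genes, and genes are not independent replicates. Counting noise did not account for the difference within any pair of libraries, so none was taken for a duplicate.

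A call needed an adjusted p below 0.05 together with a log2 difference of 1 or more, from limma's moderated test with Benjamini-Hochberg adjustment over all genes of the table. By this rule 35.4% of genes were called: 266 genes, 25.3% of those tested, were higher on wheat straw, and 106 genes, 10.1%, were lower. These shares are the background against which counts of calls below are read. Under the deposited scaling the median rise was larger than the median fall, 2.46 against -1.86. With libraries centred on their medians the order turned, to 1.60 and -2.72 for the same genes, and after quantile normalisation it was 1.81 and -2.49. As deposited, 100 of the genes that rose did so by a log2 difference of 1 to under 2, 97 by 2 to under 4, 42 by 4 to under 6 and 27 by 6 or more. Among those that fell, the same ranges held 58, 43, 4 and 1 genes. The middle range of the rises, from the lower to the upper quartile, was 1.62 to 4.17, and that of the falls was -2.60 to -1.37. The mycelium was measured as a whole, so more cells that express a gene and more RNA per cell cannot be told apart.

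**Figure D1:**
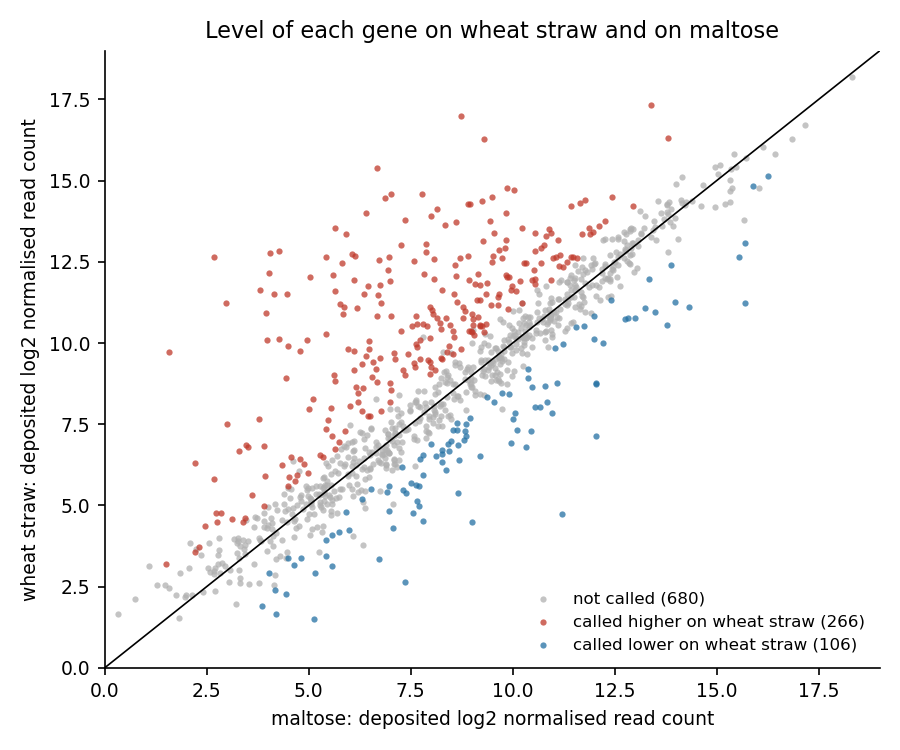
Deposited log2 normalised read count of all genes on wheat straw (vertical axis) against maltose (horizontal axis), 1 point per gene, with the line of equal values. The 266 genes called higher reach far above the line, up to a log2 difference of 9.98, and the 106 called lower lie closer to it, with 1 gene at a difference of -6.47.

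The balance of rises and falls changed with the scaling of libraries. As deposited, the median log2 difference over all genes was 0.19 and 71.5% of calls were higher. Centring libraries on their medians gave a median difference of -0.67 and 32.9% higher calls. After quantile normalisation these values were -0.37 and 40.3%. A shift of each library by its median deviation from gene means gave -0.044 and 59.9%. Of the 266 rises, 170 were called under all 4 scalings, and of the 106 falls, 105 were. Each other scaling lowered the median difference over all genes, and with each the median rise was smaller and the median fall larger. These counts therefore do not show that falls were firmer than rises. How the genes of the table were chosen was not given, and which scaling suits them was not tested. Differences below are those of the deposited scaling.

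The remaining 680 genes were not called. For 332 of them the 95% interval of the difference lay between -1 and 1, and their median absolute difference was 0.18. Intervals of the other 348 reached past 1 or -1, so a 2-fold change in these genes was neither called nor bounded. Among them were 47 genes with a difference of at least 1, 25 higher and 22 lower, that missed the adjusted p. Over all genes the median standard error (SE) was 0.28.

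Levels of the called genes lay in different ranges. Genes that rose had a median deposited log2 value of 7.82 on maltose and 11.06 on wheat straw. Genes that fell had medians of 8.74 on maltose and 6.91 on wheat straw. On the other substrates the genes called higher stood at medians of 9.50 on cellulose, 10.91 on pine and 10.87 on aspen. Against maltose, their median difference was 0.83 on cellulose, 3.13 on pine and 2.61 on aspen, beside 2.46 on wheat straw. For the genes called lower the values were -0.49, -1.82 and -2.07, beside -1.86 on wheat straw. The genes were chosen on wheat straw against maltose, and all these differences share the maltose libraries, so they are given side by side only. Over all genes the medians were 0.19, 0.10, 0.56 and 0.30 on wheat straw, cellulose, pine and aspen.

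The calls are also given by level, as a description. Genes were put in 4 classes of 263 by their mean value on cellulose, pine and aspen. Genes called higher were themselves by median above maltose on these substrates and genes called lower below it, as given above. This can place rises in higher classes and falls in lower ones. These substrates also enter the fit through its spread. In the class of lowest level, from 1.47 to 6.43, 25 genes were higher on wheat straw and 34 lower. The second class had 50 higher and 40 lower. The third had 94 higher and 19 lower. In the class of highest level, from 11.57 to 16.98, 97 were higher and 13 lower, but both substrates' libraries were solved for only 126 of its genes. The median difference was 0.06, -0.03, 0.27 and 0.48 from the lowest to the highest class. With median centring the lowest class had 8 higher and 104 lower, and the highest had 71 higher and 56 lower. Quantile normalisation gave 15 higher and 53 lower in the lowest class, and 71 higher and 37 lower in the highest. With the shift by median differences, the lowest class had 14 higher and 48 lower, and the highest 87 and 20. How much of this pattern follows from the classing was not tested.

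The genes with the largest difference relative to its error show the comparison gene by gene. Gene 1374127 had 241, 474 and 734 reads in maltose libraries 1 to 3 and 24173 and 28734 reads in the wheat straw libraries. On the log2(normalised reads + 1) scale these are 9.15, 8.89 and 8.84 on maltose, and 14.22 and 14.33 on wheat straw. Both straw libraries thus lay far above all 3 maltose libraries, and each group was tight. The rise was 5.31 (SE 0.18, limma adjusted p = 8.45e-07). Without any 1 of the 5 libraries it stayed between 5.25 and 5.41.

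Gene 1367032 rose from a much lower start. It had 27, 41 and 73 reads in the maltose libraries, or 6.01, 5.39 and 5.54 on the log2 scale, and 3400 and 5029 reads on wheat straw, or 11.39 and 11.81. Its rise was 5.95 (SE 0.22, limma adjusted p = 1.58e-08), between 5.74 and 6.17 without any 1 library. Wheat straw was the substrate on which this gene was highest. It exceeded cellulose by 1.07 (SE 0.24, limma adjusted p = 0.00517), aspen by 1.90 (SE 0.22, adjusted p = 0.000284) and pine by 2.30 (SE 0.22, adjusted p = 6.25e-05).

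Gene 680775 gave the largest ratio of change to error among the falls. It had 86, 214 and 342 reads on maltose, which scale to log2 values of 7.66, 7.75 and 7.74, and 69 and 59 reads on wheat straw, at 5.79 and 5.43. The raw reads of maltose library 1 and of the straw libraries were close, but that library was scaled up by its low size factor of 0.426. The fall was -2.11 (SE 0.18, limma adjusted p = 4.54e-06). On cellulose the gene was at 7.83, near its maltose value, and on aspen at 6.20, and it differed from pine by 0.01. Gene 1375080 fell by 2.76 (SE 0.25, limma adjusted p = 6.55e-06), from 10.40, 9.84 and 10.05 on maltose to 7.29 and 7.37 on wheat straw. Its wheat straw value was also below those on the other solid substrates, with differences of -2.36 from cellulose (SE 0.27, adjusted p = 7.6e-05), -2.08 from pine (SE 0.25, adjusted p = 0.000225) and -1.27 from aspen (SE 0.25, adjusted p = 0.00465), by the same limma fit. Both straw libraries of this gene lay under every other recovered library of the series.

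**Figure D2:**
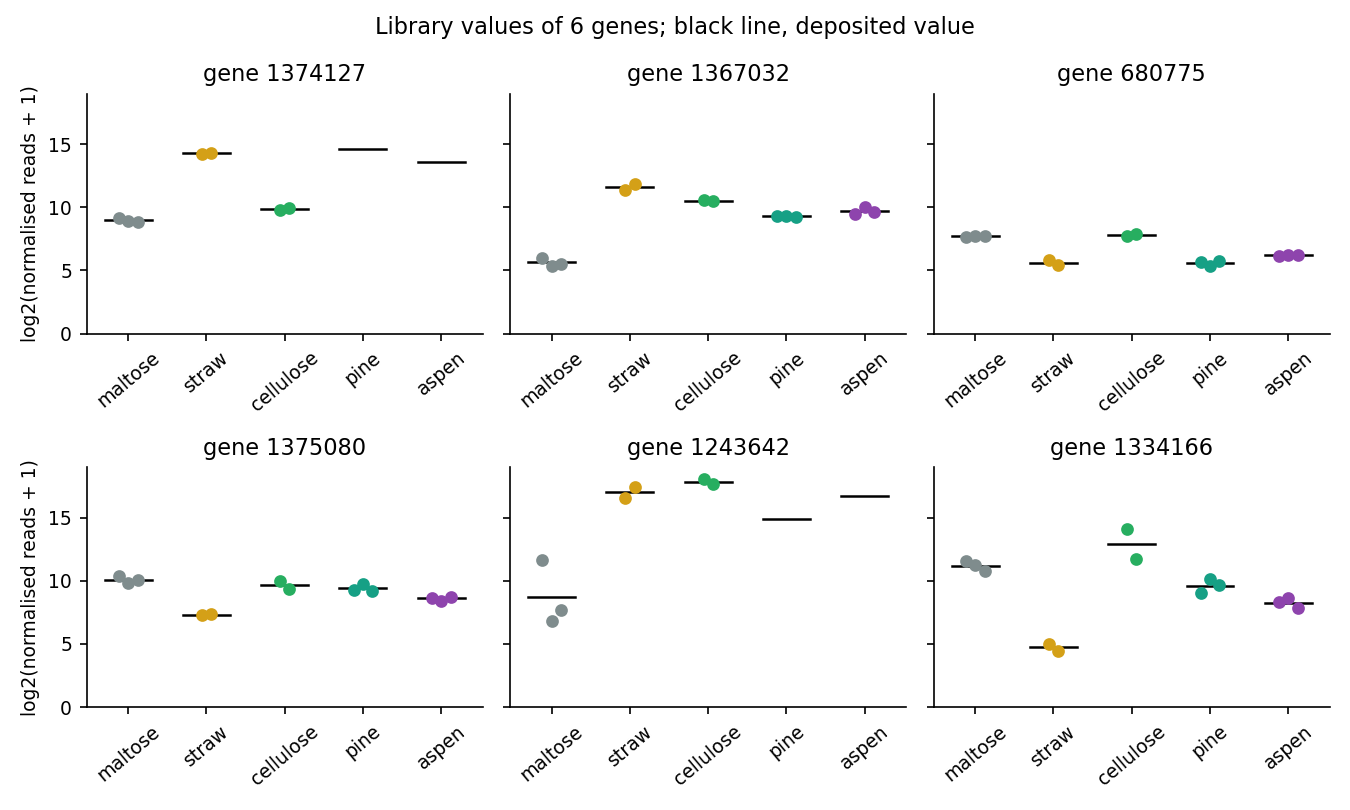
Log2(normalised reads + 1) of 6 genes in each recovered library (points), by substrate, with the deposited value as a black line; a line without points marks libraries that were not solved. The straw points of genes 1374127 and 1367032 lie above their maltose points, those of genes 680775, 1375080 and 1334166 lie below, and maltose library 1 of gene 1243642 lies at 11.66 above the other maltose libraries.

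Few called genes had nearly no reads in every library of 1 substrate. The limits used here are on unscaled reads in each library, so a gene above a limit in only 1 library is left out. Only 8 of the 255 solved rises had under 10 reads in each maltose library, and 69 had under 100. On the other side, 6 of the 83 solved falls had under 10 reads in both wheat straw libraries, and 40 had under 100. These limits were not counted over all solved genes, so nothing particular to the calls is read from these numbers. With at most 3 reads as the limit, only 2 solved genes of the table met it in every maltose library. In both wheat straw libraries 1 solved gene met it. Of these, 1 gene was called higher and 1 lower. Gene 1438839 had 1, 2 and 2 reads on maltose and 10 and 12 on wheat straw, a rise of 1.71 (SE 0.63, limma adjusted p = 0.0491). That call was lost under each other scaling and without any 1 of the 5 libraries, with adjusted p of up to 0.170 in the latter. Gene 1325741 had 16, 27 and 63 reads on maltose and 3 and 2 reads on wheat straw, a fall of -3.62 (SE 0.76, limma adjusted p = 0.00245). With 32 normalised reads added to each value its difference was -0.97, under the size threshold.

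The transcript pool shifted towards the genes that rose. The pool is the sum of normalised reads over all genes of the table, taken back from the deposited log2 values, so it is not a share of the reads of any library. It was 1.28 times as large on wheat straw as on maltose. The 266 genes called higher made up 5.50% of the pool on maltose and 38.5% on wheat straw. The 106 called lower went from 14.9% to 3.04%. Genes that were not called held 79.6% on maltose and 58.4% on wheat straw. The pool was also spread over more genes on wheat straw, where 45 genes held 50% of it and 277 held 90%, against 25 and 221 on maltose. These shares use the genes the comparison selected and are a description.

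**Figure D3:**
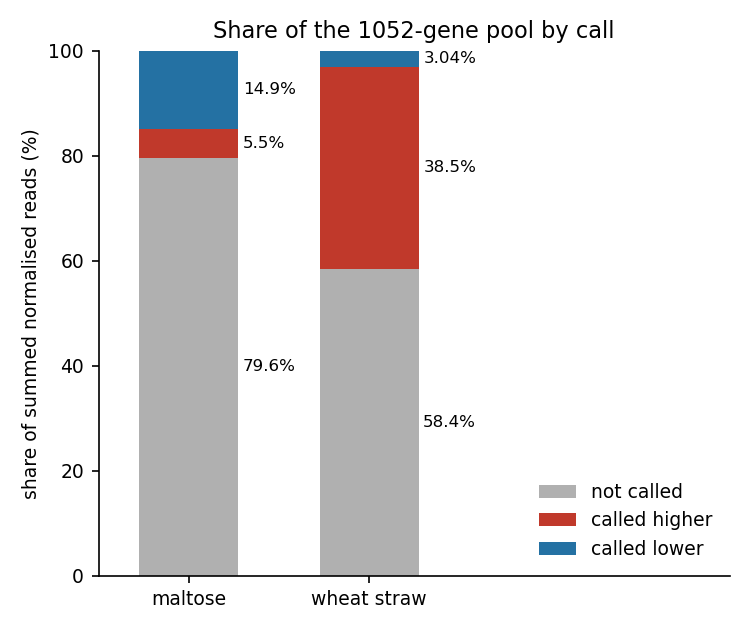
Share of the summed normalised reads of all genes (vertical axis, percent) on maltose and on wheat straw, split into genes not called, called higher and called lower on wheat straw. The share of the genes called higher is 5.50% on maltose and 38.5% on wheat straw, and that of the genes called lower is 14.9% and 3.04%.

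The most abundant transcripts of the table changed in part. Of the 10 genes with the highest value on wheat straw, 5 were also among the 10 highest on maltose, 4 were called higher and none was called lower. Of the 10 highest on maltose, 3 were called lower and none higher. Among the 100 highest on wheat straw, 41 were called higher, against 25.3% of all genes, and 2 were called lower. The 100 highest on maltose included 15 genes called lower, against 10.1% of all genes, and 3 called higher, against 25.3%. Being high on wheat straw or on maltose is part of the contrast itself, so nothing is read from the calls in these lists. In both lists of 100 were 61 genes.

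Gene 1241654 gained the most normalised reads. It had 200143 and 243257 reads in the wheat straw libraries, was the gene with the second highest value there, and made up 3.90% of the pool, against 0.326% on maltose. Its log2 value was 17.34 on wheat straw and 13.40 on maltose, a rise of 3.94 (SE 0.47, limma adjusted p = 0.00195). Its maltose libraries were not solved, so the spread behind this test came from wheat straw and cellulose. Cellulose gave 14.26 for this gene, pine 18.06 and aspen 17.25. Only the difference from cellulose, 3.08 (SE 0.51, limma adjusted p = 0.00897), was called among these.

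Gene 1243642 ranked 3 on wheat straw and 477 on maltose. It had 124589 and 243072 reads on wheat straw, at log2 values of 16.58 and 17.41. On maltose it had 1380 reads in library 1 and 112 and 332 reads in libraries 2 and 3, at 11.66, 6.82 and 7.70. The maltose libraries thus spread widely (SD 2.58 over 3), with library 1 far above the others, yet all lay below both straw libraries. The rise was 8.27 (SE 1.30, limma adjusted p = 0.00186), and 9.74 without maltose library 1. The gene was at 17.83 on cellulose, higher than on wheat straw by 0.83, a difference within its error (SE 1.43, adjusted p = 0.683).

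Gene 1117416 and gene 1347896 lost the most normalised reads among the genes called lower. They ranked 11 and 10 on maltose and 290 and 114 on wheat straw. Gene 1117416 had 4375 and 2353 reads in the straw libraries, and its log2 value fell by 4.46 (SE 0.56, limma adjusted p = 0.000193), from 15.69 to 11.23. It was at 16.03 on cellulose and at 11.12 and 10.12 on pine and aspen. Gene 1347896 had 16269 and 8192 reads in the straw libraries and fell by 2.62 (SE 0.38, limma adjusted p = 0.00397), from 15.70 to 13.08. Their shares of the pool went from 1.59% to 0.0567% and from 1.61% to 0.204%. For both genes straw library 1 was above library 2, and the maltose libraries were not solved, so their spread on maltose is missing.

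Libraries of a substrate deviated from each other differently for called genes and for genes not called, in maltose library 1 mainly for the rises. Of the 255 solved rises, 140 had their highest maltose value in library 1, or 54.9%, against 35.9% of the 557 solved genes that were not called. Among the 68 solved genes that rose at least 16-fold the number was 54. There library 1 exceeded the mean of the other maltose libraries by a median of 0.77, against 0.00 for genes not called. The median rise of these 68 genes was 5.71, and 5.99 without maltose library 1. Without maltose library 2 it was 5.37, and without library 3 it was 5.45. Wheat straw library 1 lay slightly closer to maltose than library 2 did: it was below library 2 by a median of 0.18 for the rises and above it by 0.36 for the falls. For genes not called it was above by 0.07. Over the 895 solved genes, the Pearson correlation of wheat straw library 1 was 0.800 with maltose library 1, 0.717 with library 2 and 0.730 with library 3. For wheat straw library 2 these values were 0.767, 0.682 and 0.694. The part of these library differences in the results was not tested.

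**Figure D4:**
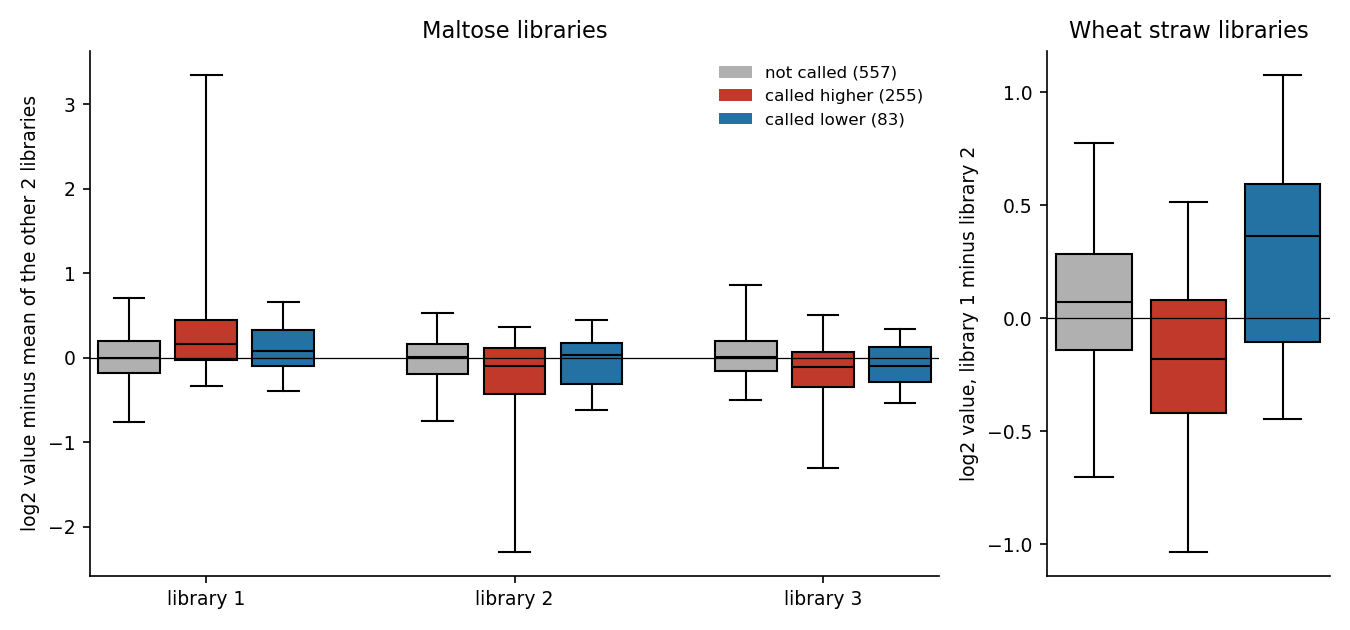
Left, log2 value of each maltose library minus the mean of the other maltose libraries; right, wheat straw library 1 minus library 2, for solved genes not called (grey, 557), called higher (red, 255) and called lower (blue, 83). Boxes are quartiles with the median, and whiskers reach the 5th and 95th percentiles; the genes called higher extend upwards in maltose library 1 and lie below 0 in the right plot, where the genes called lower lie above it.

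The number of falls was most sensitive to wheat straw library 2. Fitted on the 895 solved genes, 257 rose and 84 fell. Without wheat straw library 2 the numbers were 230 and 55, and 51 of the 84 falls were kept. Without wheat straw library 1 they were 236 and 75, and without maltose library 1 they were 249 and 75. Leaving out maltose library 2 gave 242 and 83, and leaving out maltose library 3 gave 245 and 73. Through all 5 omissions 214 rises and 47 falls were kept, and no call changed its sign. Wheat straw libraries also spread more for falls than for rises, with a median SD of 0.31 against 0.20. In each solved call the wheat straw libraries lay wholly outside the range of the maltose libraries. That alone is a weak mark, since it held for 72.5% of all solved genes, 45.7% with wheat straw above and 26.8% with it below.

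The difference from maltose on wheat straw was then set against the mean difference on cellulose, pine and aspen. Maltose cancels in this contrast, which compares the wheat straw value with the mean of the other 3 solid substrates. Here 62 genes, 5.89% of those tested, were higher on wheat straw and 50, or 4.75%, were lower, by the same rule. On the genes solved in every library 39 were higher and 31 lower, and without wheat straw library 2 these became 28 and 15. The differences were smaller than those from maltose. Their SD over all genes was 0.78, against 1.97 for wheat straw minus maltose, and 12 of the rises and 12 of the falls reached 4-fold. A mean of 3 substrates dilutes a difference from only 1 of them. These SDs therefore do not show how close wheat straw was to any single solid substrate. The 62 higher genes had median values of 11.31 on wheat straw, 10.22 on pine, 9.92 on aspen, 8.35 on cellulose and 7.98 on maltose. For 33 of them wheat straw was the highest of the 5 substrates. The 50 lower genes had medians of 8.11 on wheat straw, 8.78 on maltose, 9.54 on cellulose, 9.72 on aspen and 10.04 on pine. Wheat straw was the lowest of the 5 for 26 of them.

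**Figure D5:**
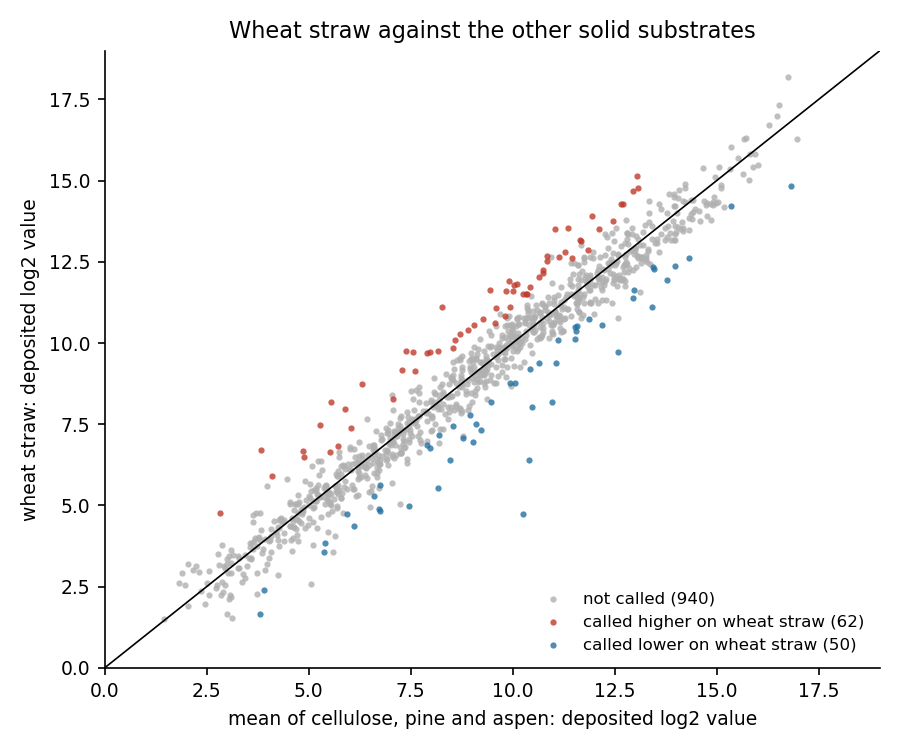
Deposited log2 value of all genes on wheat straw (vertical axis) against the mean of cellulose, pine and aspen (horizontal axis), with the line of equal values. The 62 genes called higher and 50 called lower lie close to the line compared with the spread between wheat straw and maltose, and 1 gene has a difference of -5.53. The mean on the horizontal axis dilutes a difference from a single substrate.

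Among genes called in the same direction against maltose and against the other solid substrates, gene 1367405 had the highest ratio of difference to error. It had 390, 932 and 1424 reads on maltose, at log2 values of 9.84, 9.87 and 9.79, and 12123 and 12499 on wheat straw, at 13.22 and 13.13. It exceeded maltose by 3.34 (SE 0.16, limma adjusted p = 5.46e-06) and the mean of the other solid substrates by 1.51 (SE 0.14, adjusted p = 0.000852). Of the 3 substrates in that mean, cellulose had a far lower value, 8.90, with 567 and 509 reads. From pine, at 13.07, wheat straw differed by 0.10 (SE 0.16, adjusted p = 0.65), and from aspen by 0.17 (SE 0.16, adjusted p = 0.482). Gene 1374127, described above, came next with 1.57 (SE 0.15, limma adjusted p = 0.000917). It too was low on cellulose, at 9.89, while on pine it was at 14.61 and on aspen at 13.60.

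Both falls named for this contrast were also lower on wheat straw than on each of the other solid substrates. Gene 1334166 had 1310, 2472 and 2765 reads in the maltose libraries, at log2 values of 11.59, 11.27 and 10.75. In the wheat straw libraries it had 40 and 29 reads, at 5.02 and 4.44. On cellulose it had 19347 and 3999 reads, on pine between 377 and 1015, and on aspen between 273 and 451. Its wheat straw value was below the mean of the other solid substrates with a difference of -5.53 (SE 0.51, limma adjusted p = 0.000168). Every other recovered library of the series lay above both straw libraries. The nearest substrate was aspen, with a difference of -3.52 (SE 0.59, adjusted p = 0.00186). Gene 1223002, among the most abundant of the table, had 37888 and 39240 reads on wheat straw, at 14.87 and 14.78. It fell by 1.07 from maltose (SE 0.21, limma adjusted p = 0.012). Against the mean of the other solid substrates the difference was -2.01 (SE 0.18, adjusted p = 0.00296), with 17.97 on pine and 16.63 on aspen. Its maltose, pine and aspen libraries were not solved, and under quantile normalisation the adjusted p of its difference from maltose was 0.0595.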

How the data were processed

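Mycelial messenger RNA of 2 wheat straw and 3 maltose samples was compared. For each of 1052 genes the authors deposited a log2 read count, normalised, with 1 value for each substrate, per the file headers. TopHat2, HTSeq and DESeq 1.5 are the tools in the submitters' processing notes. How genes were chosen, which constant entered the log and the genome build were not given in the sources used here.

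Each deposited value was modelled as an average of log2(scaled reads + 1) across libraries, where reads are whole and each library has its own scale. The 16 lowest values of a column gave the scales, which were refined on the 60 lowest, and all 60 came out whole within 1e-09. With scales moved by 1% at most 1 of 60 did. Maltose, pine and aspen needed 3 libraries, and wheat straw and cellulose 2 (the labels list 3 for cellulose). Reads were kept where exactly 1 solution matched: 896 genes on maltose and 1050 on wheat straw. Above a value of 12, columns of 3 libraries were not attempted. On simulated columns, 1051 of 1051 solved wheat straw genes and 890 of 890 solved maltose genes had the right reads. Size factors lay between 0.426 and 1.61.

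The recovered values of all 13 libraries entered 1 fit in limma 3.58.1 (R 4.3.3), with a mean per substrate and a trended spread. Where a substrate was not solved, the deposited mean was kept and the spread came from the other substrates. On simulated reads for wheat straw minus maltose over 1052 genes, the fit called 16 of 67 genes with a 2-fold change, 58 of 67 with 4-fold, 59 of 66 with 8-fold and 6 of 852 left unchanged. A 2-fold change lies at the size threshold, which limits how many can be called. The simulated noise was independent between genes, so deviations that many genes of a library share were not modelled. Since 1 was added to normalised reads before the log2, changes of low genes are understated.

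Numbers were named by ratio of difference to error against maltose, by the same ratio against the other solid substrates, by gain or loss of normalised reads, and by at most 3 reads on 1 substrate. The genes, questions and tests were chosen with earlier results of these data known. Lists by enzyme family were not run, since no names are paired. Alternatives were other scalings, added reads, a filter, fewer genes or libraries, an untrended spread and limma's treat test. Python 3.11.15, NumPy 2.4.6, numba 0.67.0 and matplotlib 3.10.9 were used.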

Additional observations from a re-analysis of the deposited data

Results flagged for a closer look

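The difference from maltose on wheat straw differed from the mean difference on cellulose, pine and aspen for the 4 genes named for that contrast, by limma's adjusted p. The size was 1.51 for gene 1367405, 1.57 for gene 1374127, -2.01 for gene 1223002 and -5.53 for gene 1334166. The genes were named for being called in this contrast, so that they differ follows from the choice. Gene 1367405 exceeded cellulose by 4.27 on wheat straw, but differed from pine by 0.10 and from aspen by 0.17. For gene 1374127 these values were 4.39, -0.34 and 0.68.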

How the results depend on the processing

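Of the alternatives to wheat straw minus maltose, median centring gave 170 genes higher and 346 lower in place of 266 and 106. Quantile normalisation gave 275 lower and limma's treat test against a 2-fold change gave 41 lower. The median difference over all genes, 0.19 as deposited, turned to -0.67 by centring, -0.37 by quantile normalisation and -0.044 by the median shift. On solved genes, leaving out 1 library gave 230 to 249 higher against 257, and 55 to 83 lower against 84, where 55 was without wheat straw library 2. For wheat straw minus the other solid substrates, restriction to the genes solved in every library gave 39 higher and 31 lower in place of 62 and 50, on fewer genes. Without a wheat straw library these became 28 to 28 higher and 15 to 21 lower. The remaining counts stayed within 1.5 times. Of 147 values for single genes, 135 kept their call and direction, 12 lost the call and none reversed. Of these 12, 11 belonged to gene 1438839 and 1 to gene 1325741. The cause was not tested. Genes named for a large ratio of difference to error were unlikely to lose a call. Those named against the other solid substrates were counted for that contrast only. The lost call of gene 1223002 against maltose under quantile normalisation (limma adjusted p = 0.0595) is thus not among the 12. No paired analysis was possible because the recovered libraries carry no replicate numbers.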
